A study of Arabis alpina with 12 samples.

Results

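Aatoe2_IL was compared with wild type in the main shoot apex of Arabis alpina, a perennial crucifer related to Arabidopsis, by sequencing poly(A) RNA. The groups compared are the 3 Aatoe2_IL apex columns and the 3 wild-type apex columns of the deposited read count table. These are 6 of the 12 libraries of the series, and the other 6 came from V3 buds of both genotypes. The spread used in the tests was estimated from all 12 libraries, buds included. Plants of both genotypes were of the accession Pajares. They had grown for 8 weeks in long days and had then been kept for 8 weeks in the cold (vernalization) in short days when the apices were dissected. The stated purpose was to follow the action of AaTOE2 on flowering during vernalization.

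Aatoe2_IL is labelled as a genotype affected in AaTOE2, but what its lesion is, the sources used here do not give. The samples hold no other genotype affected in AaTOE2, and the part of AaTOE2 in a difference cannot be told apart from that of other loci in which Aatoe2_IL may differ. TOE2 is not paired with an identifier in the files, and its level was not analysed here. The labels number the replicates without saying that they came from separate plants, so p-values measure the spread between these libraries, which may in part be technical.

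In Arabidopsis, TOE2 belongs to the APETALA2-like transcription factors, which delay flowering and are kept down by a microRNA as the plant ages. SPL transcription factors act on the opposite side of this age pathway and promote flowering, upstream of meristem identity genes such as AP1. In perennials such as Arabis alpina, prolonged cold lets the main apex form flowers while buds at other positions stay vegetative or dormant. Names come from the Arabidopsis orthologue columns of the authors' tables, and the roles given with them are known from Arabidopsis.

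Reads assigned to genes came to 11402861, 9683738 and 10537169 in Aatoe2_IL apex replicates 1, 2 and 3, against 12309478, 12036678 and 12032338 in the wild-type apices. CPM is the unit of reads in genes scaled by library size. A level of 1 CPM stands for about 9.68 to 12.3 reads before the further TMM scaling of library sizes described below. On the first principal component of the 6 apex libraries, which held 49.5% of the variance of log2 CPM, Aatoe2_IL replicates 2 and 3 scored 43.2 and 30.1, and the wild-type libraries scored between -38.0 and -15.4. Aatoe2_IL replicate 1 scored 1.3 and lay between the groups. Its log2 CPM correlated with the other Aatoe2_IL apices at a mean r of 0.980 and with the wild-type apices at 0.982, across genes, which are not independent replicates. Results that rest on this library are given with and without it.

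Between the genotypes 215 genes differed, most of them lower in Aatoe2_IL. The spread for this test came from apex and bud libraries together, and in a fit of apex libraries alone 129 of 19161 genes passed. Of 19520 genes tested, 57 were higher and 158 lower in Aatoe2_IL (edgeR quasi-likelihood test, Benjamini-Hochberg adjusted p under 0.05), which is 1.10% of the genes tested, 0.292% in the higher and 0.809% in the lower direction. The median log2 fold change was 1.08 among the genes that rose and -1.02 among those that fell, against -0.00 over all genes tested. The mean level of the genes that fell had a median of 15.6 CPM, against 23.6 CPM for those that rose and 23.5 CPM for all genes tested. An orthologue name was available for 67 of the 215, of which 14 rose and 53 fell. Names exist only for genes that the authors listed from these samples, so counts of named genes per pathway are not independent evidence of a direction.

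**Figure D1:**
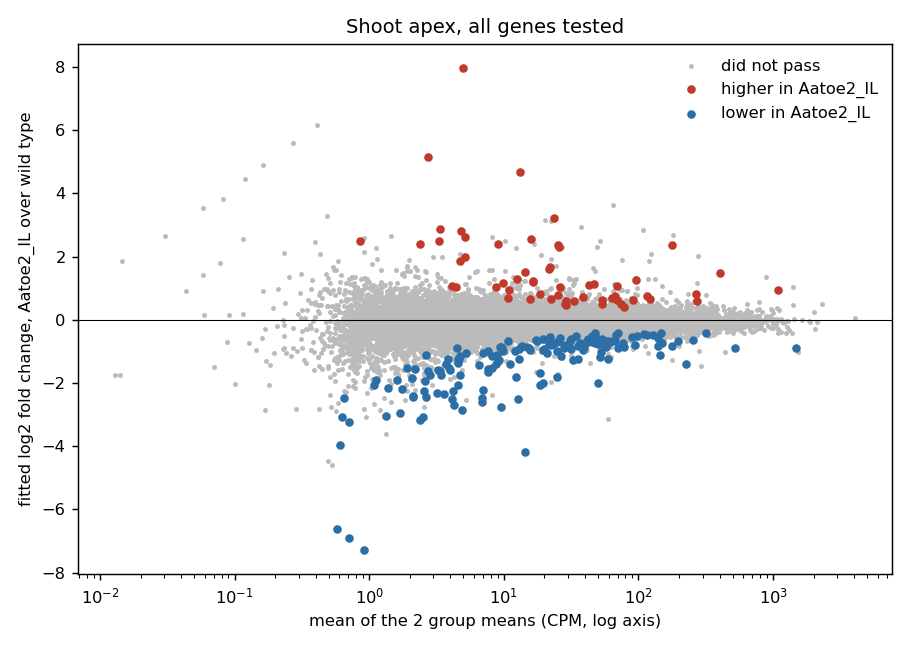
Each point is 1 of the 19520 genes tested in the shoot apex, with the mean of both group means in CPM on the horizontal log axis and the fitted log2 fold change of Aatoe2_IL over wild type on the vertical axis. Red points are the 57 genes that rose and blue points the 158 that fell; a reader should see that most calls lie below 0.

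The balance of rises and falls depended on Aatoe2_IL apex replicate 1. That library was the lowest of the 3 Aatoe2_IL apices, hence the nearest to wild type, for 43 of the 57 genes that rose, against 35.3% of all genes tested, and the highest of the 3 for 100 of the 158 that fell, against 37.0% of all genes tested. The median over the genes that rose lay 0.64, 1.26 and 1.12 above the wild-type mean (log2 CPM) in Aatoe2_IL replicates 1, 2 and 3, and the median over the genes that fell lay at -0.89, -1.10 and -1.05. Without replicate 1 the test called 698 genes (3.53% of those tested), 335 higher and 363 lower, and these included 204 of the 215. The count was 41 and 47 without Aatoe2_IL replicates 2 and 3, and 360, 35 and 116 without wild-type replicates 1, 2 and 3. As a background for the list counts given below, 1.70%, 0.0556% and 0.0708% of genes tested were higher in Aatoe2_IL without Aatoe2_IL replicates 1, 2 and 3, and 0.664%, 0.0557% and 0.132% without wild-type replicates 1, 2 and 3. For genes lower in Aatoe2_IL these shares were 1.84%, 0.152% and 0.167% without Aatoe2_IL replicates 1, 2 and 3, and 1.16%, 0.122% and 0.456% without wild-type replicates 1, 2 and 3. Both directions together came to 0.207% and 0.238% without Aatoe2_IL replicates 2 and 3, and to 1.83%, 0.177% and 0.588% without wild-type replicates 1, 2 and 3. The DESeq2 Wald test on all libraries called 2.55% of genes, 1.03% higher and 1.53% lower.

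This was examined gene by gene for the 67 named genes and for 6 unnamed genes chosen by fold change. Of these 73, 15 passed whichever of the 6 apex libraries was left out, 12 of them named. Among the named rises only TEL1 did so. TEL1 (Aa_G83280h1) is an RNA-binding protein gene of the shoot and root apical meristem. It stood at 57.9, 55.1 and 63.0 CPM in Aatoe2_IL apices, against 30.6, 23.0 and 28.8 CPM in wild-type apices. Every Aatoe2_IL library was above every wild-type one, and the mean of 58.7 ± 4.05 CPM against 27.5 ± 3.98 CPM (SD, n = 3 each) differed by 1.09 in log2 units (SE 0.11, edgeR adjusted p = 0.000276).

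Among the falls that stood in this way were EXPA9 and XTH7, neither of them in the cell wall list. EXPA9 (Aa_G274600h1), an expansin gene whose product loosens cell walls, had 3.22, 1.84 and 2.19 CPM in Aatoe2_IL apices, against 17.8, 17.5 and 14.5 CPM in wild-type apices. Its log2 fold change was -2.76 (SE 0.25), with the smallest adjusted p of all falls (edgeR, 0.000101), and the 3 Aatoe2_IL libraries lay close together, replicate 1 included. XTH7 (Aa_G95130h1), which encodes a xyloglucan-remodelling enzyme, had 1.74, 1.33 and 0.571 CPM in Aatoe2_IL apices, against 8.35, 7.0 and 5.75 CPM in wild-type apices, a log2 fold change of -2.52 (SE 0.36). Further falls of this kind were those of the lipid and protein turnover genes PLP6 (patatin-like lipase, -0.72) and CP2 (cysteine protease, -1.23), both as log2 fold changes. The others were AACT1 (acetoacetyl-CoA thiolase, -1.23), the defence-related genes MLP28 (-1.99) and ATL6 (-2.25), the gravitropism gene LAZY1 (-2.05), CYP79B2 (-4.17), AT2G16750 (-1.31) and AT3G13650 (-2.85).

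**Figure D2:**
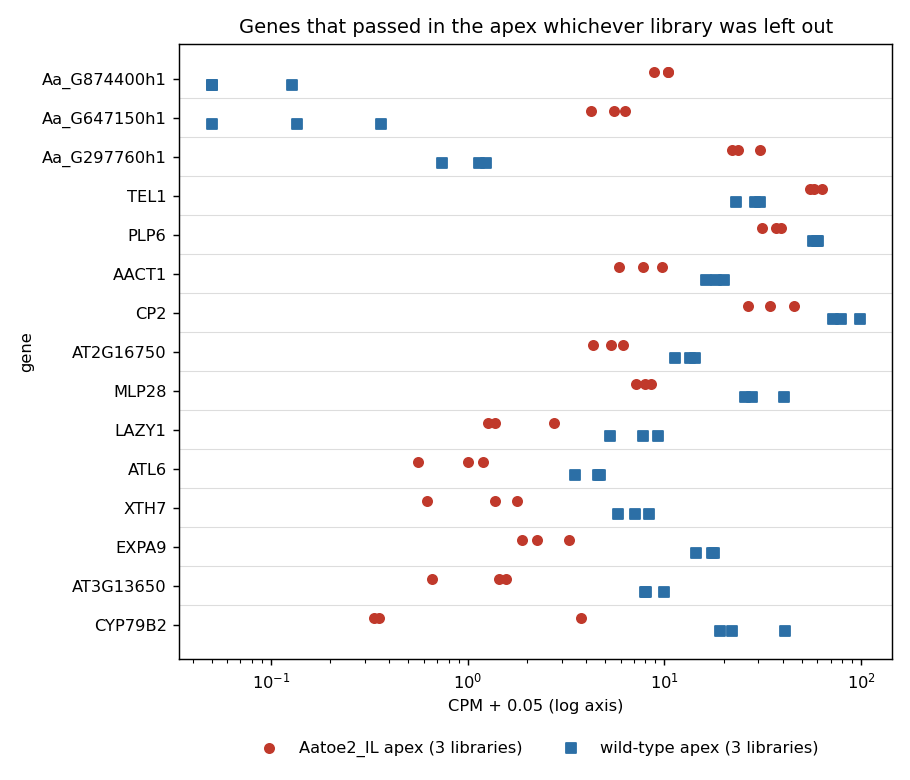
CPM plus 0.05 on a log axis for the 15 of 73 genes examined that passed whichever apex library was left out, with red circles for the 3 Aatoe2_IL libraries above blue squares for the 3 wild-type libraries of each gene. The genotypes do not overlap in any of these genes, and TEL1 shows the narrow spread within genotypes, 55.1 to 63.0 CPM in Aatoe2_IL against 23.0 to 30.6 CPM in wild type.

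Glucosinolate genes gave 6 of the falls. Glucosinolates are sulfur-rich defence compounds of the cabbage order, made from tryptophan (indole type), methionine (aliphatic type) or phenylalanine (benzyl type), and activated by myrosinases. Of 17 indole pathway genes listed, 7 had a name and were tested. Of these, 3 fell (0.809% of all genes tested did), none rose and 4 did not pass. All 7 were lower in Aatoe2_IL on average, with a median log2 fold change of -1.45. Of 26 aliphatic and benzyl pathway genes, 9 were tested, and 3 fell, none rose and 6 did not pass, with a median of -2.24. All 7 indole genes and 7 of these 9 were in the authors' apex lists, which had selected them on the same libraries.

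The entry enzymes of the indole branch convert tryptophan to its aldoxime. CYP79B2 (Aa_G486300h1) had 3.74, 0.306 and 0.286 CPM in Aatoe2_IL apices, against 40.9, 22.1 and 19.2 CPM in wild-type apices. All 3 Aatoe2_IL libraries were below every wild-type library, with replicate 1 several times as high as the others of its group. The log2 fold change was -4.17 with it (SE 0.65, edgeR adjusted p = 0.00772) and -6.48 without it. CYP79B3 (Aa_G407280h1) had no count in the 3 Aatoe2_IL apices, against 2.11, 1.12 and 1.01 CPM in wild-type apices, or 52 counts in all, and was at least 15.2-fold lower in Aatoe2_IL when a floor of 3 counts over the group was set for the 0. Its call was lost without any one of 5 libraries, Aatoe2_IL replicate 1 being the exception.

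Genes of middle steps on the indole list, not all of them particular to that branch, did not pass. Their groups did not overlap, as in 20.8% of all genes tested in either direction. GSTF9, a glutathione S-transferase gene, had 266, 100 and 101 CPM in Aatoe2_IL apices, against 531, 420 and 324 CPM in wild-type apices. The aldoxime oxidase gene CYP83B1 had 174, 66.4 and 72.6 CPM in Aatoe2_IL apices, against 324, 214 and 221 CPM in wild-type apices. SUR1, the C-S lyase gene, had 107, 62.4 and 62.8 CPM in Aatoe2_IL apices, against 211, 133 and 133 CPM in wild-type apices. In all 3 genes each Aatoe2_IL library was below each wild-type one, with replicate 1 nearest to wild type, but none passed (log2 fold changes -1.45, -1.28 and -1.04, edgeR adjusted p = 0.0690, 0.109 and 0.0544). Without replicate 1 all 3 passed, at -2.08, -1.87 and -1.34 (edgeR adjusted p = 0.00332, 0.00986 and 0.00900).

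The sulfotransferases that complete the glucosinolate core fell together. SOT16 (Aa_G98840h1), of the indole branch, had 2.17, 0.408 and 0.762 CPM in Aatoe2_IL apices, against 12.3, 5.62 and 4.31 CPM in wild-type apices, so that its log2 fold change was -2.68 (SE 0.51, edgeR adjusted p = 0.0229). SOT18 (Aa_G98830h1), which acts on aliphatic substrates, fell by 2.60 on the log2 scale (SE 0.45), and SOT17 (Aa_G119000h1) by 1.41 (SE 0.28). Without Aatoe2_IL replicate 1 the log2 fold changes of SOT16 and SOT18 were -3.63 and -3.38. None of these 3 calls held without Aatoe2_IL replicate 2 or 3 or wild-type replicate 2, and that of SOT17 was also lost without wild-type replicate 1. These genes are close relatives, as are CYP79B2 and CYP79B3, and how reads shared by such copies were counted is not given, which makes the split between them uncertain.

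Regulators of the aliphatic branch were near or at 0. MYB28 (Aa_G606850h1), its main activator, had no count in the 3 Aatoe2_IL apices, against 2.58, 2.42 and 0.507 CPM in wild-type apices, or 67 counts in all. With the floor of 3 counts over the group it was at least 19.6-fold lower in Aatoe2_IL (edgeR adjusted p = 0.0426), and the call was lost without Aatoe2_IL replicate 2 or 3 or wild-type replicate 1 or 2. Its relative MYB29 had 0.0869, 0 and 0 CPM in Aatoe2_IL apices, against 1.87, 0.778 and 0.423 CPM in wild-type apices, and did not pass (edgeR adjusted p = 0.0675). FMOGS-OX6, which modifies aliphatic side chains, was the one tested gene of both glucosinolate lists with a positive fold change, 0.30 (edgeR adjusted p = 0.503).

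**Figure D3:**
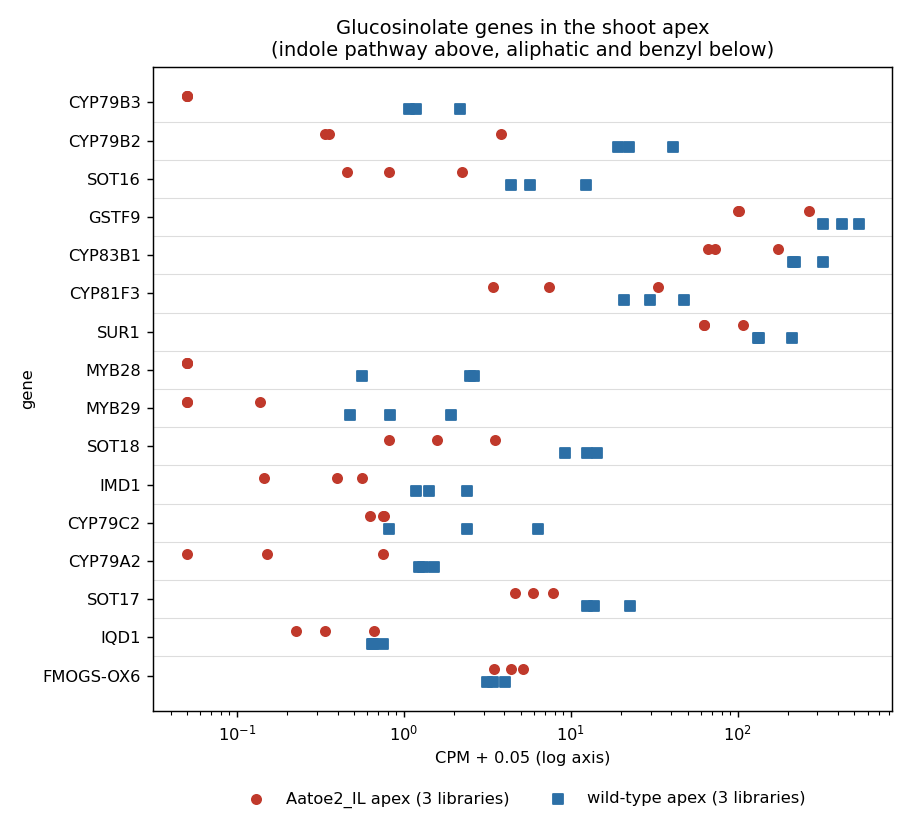
CPM plus 0.05 on a log axis for the 16 glucosinolate genes tested, with the 3 Aatoe2_IL apex libraries as red circles above the 3 wild-type apex libraries as blue squares. All red lies left of all blue for 6 of 7 indole genes and 7 of 9 others, and 20.8% of all genes tested lacked overlap in either direction. Most of the genes shown were listed by the authors from the same libraries. The rightmost red circle of the indole genes in the upper part is mostly replicate 1, as for CYP79B2 at 3.74 CPM.

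More glucosinolate genes fell without Aatoe2_IL replicate 1. Leaving it out, all 7 indole genes and 4 of the 9 others fell, with medians of -2.60 and -2.40. Leaving out Aatoe2_IL replicate 2 or 3 or wild-type replicate 2, 1 indole gene and none of the others fell, and without wild-type replicate 1 there were 2 and 1, and without wild-type replicate 3 there were 2 and 4. The medians of both lists stayed below -1 in all 6 of these fits. In the DESeq2 Wald test 4 indole genes and 7 of the others fell, as did 1.53% of all genes in that test.

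Among further genes that fell were PHOT1 and LAZY1, which belong to none of the lists. PHOT1 (Aa_G597830h1), a blue light receptor of phototropism, had 13.4, 3.36 and 4.48 CPM in Aatoe2_IL apices, against 35.0, 30.4 and 24.2 CPM in wild-type apices, so that its log2 fold change was -2.05 (SE 0.40, edgeR adjusted p = 0.0229). Replicate 1 was again the nearest to wild type, and the log2 fold change was -2.92 without it. The call was lost without Aatoe2_IL replicate 2 or 3 or wild-type replicate 2. LAZY1 (Aa_G354650h1), which sets the angle of shoots to gravity, had 2.69, 1.22 and 1.33 CPM in Aatoe2_IL apices, against 5.23, 9.25 and 7.78 CPM in wild-type apices (log2 fold change -2.05, SE 0.31, edgeR adjusted p = 0.00611).

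PIN3 (Aa_G665770h1), an auxin efflux carrier that redirects auxin in bending organs, had 6.35, 2.45 and 2.67 CPM in Aatoe2_IL apices, against 10.6, 13.8 and 9.97 CPM in wild-type apices (log2 fold change -1.56, SE 0.35, edgeR adjusted p = 0.0434). It was 1 of 2 tested genes of the 21 in the auxin list, and the other, BRU6, had 0.13 without passing. The PIN3 call was lost without any one of 5 libraries, and without Aatoe2_IL replicate 1 its log2 fold change was -2.16. PIL1 (Aa_G177970h1), a shade-induced transcription factor gene, had 0.0869, 2.14 and 1.43 CPM in Aatoe2_IL apices, against 6.94, 6.22 and 4.90 CPM in wild-type apices (-2.34, SE 0.48), and here replicate 1 was the farthest from wild type. Its log2 fold change was -3.02 without Aatoe2_IL replicate 2, and the call was lost without Aatoe2_IL replicate 3 or any wild-type library. The other tested gene of the 14 in the shade and light list, PIL6, had 0.07 and did not pass. The auxin-related SAUR16 (-1.94) and the zinc finger gene IDD16 (-1.15), whose family acts in auxin synthesis and gravity responses, fell as well. Both calls were lost without Aatoe2_IL replicate 2 or 3 or wild-type replicate 2, and that of SAUR16 also without wild-type replicate 3.

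Falls in wall, sugar and nitrogen genes filled out this direction. The pectin methylesterase gene PMEPCRA fell by 1.81 on the log2 scale, HPAT2, which adds arabinose to hydroxyproline-rich proteins, by 1.56, the phosphoglucomutase gene PGM3 by 1.38 and GDU3, linked to glutamine export, by 1.59. These 4 genes were picked for their roles after their values were seen. None of the 4 passed without Aatoe2_IL replicate 2 or wild-type replicate 2, and PMEPCRA, PGM3 and GDU3 did not without Aatoe2_IL replicate 3 either, nor GDU3 without wild-type replicate 3. SWEET12 (Aa_G143150h1), a sucrose exporter that loads the phloem, had 1.22, 0.102 and 0.190 CPM in Aatoe2_IL apices, against 3.67, 7.35 and 2.45 CPM in wild-type apices (log2 fold change -3.06, SE 0.61, edgeR adjusted p = 0.0288). It was -4.81 without Aatoe2_IL replicate 1, and the call was lost without Aatoe2_IL replicate 2 or 3 or wild-type replicate 2. Of the 19 genes in the sugar list 3 were tested, and SUS6 (-0.27) and SWEET13 (-0.35) did not pass.

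In the jasmonate and defence list, 4 of 24 genes were tested, and 2 fell (0.809% of all genes tested did). Of the 4, 3 were in the authors' apex lists, drawn from the same libraries. BGLU10 (Aa_G236570h1), a beta-glucosidase gene, had 0.609, 0 and 0.762 CPM in Aatoe2_IL apices, against 3.51, 7.0 and 2.45 CPM in wild-type apices, and CYP71A27, a cytochrome P450 gene, had 0.435, 0.204 and 0.190 CPM in Aatoe2_IL apices, against 2.5, 3.72 and 1.01 CPM in wild-type apices. Their log2 fold changes were -3.17 (SE 0.62) and -3.04 (SE 0.56). Neither call held without Aatoe2_IL replicate 2 or 3 or wild-type replicate 2. WRKY40 and LOX2 had -2.55 and -0.88 and did not pass, and WRKY40 had 7.61 CPM in wild-type replicate 2, and 1.48 and 0.423 CPM in wild-type replicates 1 and 3. Its log2 fold change was -0.85 without wild-type replicate 2 and -3.37 without Aatoe2_IL replicate 1. The lectin gene JAL22 (-1.99), the glycosyltransferase gene GT72B1 (-1.64), the lignin methyltransferase gene OMT1 (-1.16) and the phytyl ester synthase gene PES2 (-1.12) fell too. JAL22 had -2.86 without Aatoe2_IL replicate 1. All 4 calls were lost without Aatoe2_IL replicate 2 or wild-type replicate 2, those of JAL22, GT72B1 and PES2 also without Aatoe2_IL replicate 3, and that of GT72B1 without wild-type replicate 3.

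Heat shock genes were high in some Aatoe2_IL apices but not in all. The list holds 28 genes of heat shock factors and the chaperones they switch on, and 14 of them had a name, on 15 tested identifiers. Of these, 3 rose (0.292% of all genes tested did), none fell and 12 did not pass, and all 15 were in the authors' apex lists. The median log2 fold change was 2.07. HSP101 (Aa_G639700h1), a chaperone gene for disaggregating proteins, had 12.2, 61.8 and 53.8 CPM in Aatoe2_IL apices, against 7.02, 4.23 and 2.37 CPM in wild-type apices (log2 fold change 3.21, SE 0.58, edgeR adjusted p = 0.0164). A further identifier with the same name (Aa_G639700h2) had 1.54 and did not pass (edgeR adjusted p = 0.161). Reads may be divided over both copies.

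The small heat shock protein gene HSP23.6 (Aa_G831180h1) had 14.6, 45.7 and 66.8 CPM in Aatoe2_IL apices, against 9.60, 10.8 and 4.06 CPM in wild-type apices (2.37, SE 0.45, edgeR adjusted p = 0.0211). AT2G29500 (Aa_G199710h1), of the same protein class, had 325, 678 and 794 CPM in Aatoe2_IL apices, against 189, 265 and 188 CPM in wild-type apices (1.49, SE 0.26, edgeR adjusted p = 0.0146). Heat shock factors did not pass. HSFA7A had 4.87, 168 and 189 CPM in Aatoe2_IL apices, against 23.6, 1.3 and 3.3 CPM in wild-type apices (3.65, SE 1.13, edgeR adjusted p = 0.138). HSFA2 had 24.4, 256 and 293 CPM in Aatoe2_IL apices, against 40.9, 12.7 and 25.5 CPM in wild-type apices (2.85, SE 0.79, edgeR adjusted p = 0.0988). In both, Aatoe2_IL replicate 1 lay within the wild-type range while replicates 2 and 3 were several times above it.

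That split ran through the 15 tested identifiers, and the 14 genes of the list without a name were not examined. The authors had listed all 15 as higher in Aatoe2_IL from the same libraries, so these counts are not independent evidence. The median of the 15 genes lay 0.09, 2.51 and 2.52 above the wild-type mean (log2 CPM) in Aatoe2_IL apex replicates 1, 2 and 3, and between -0.26 and 0.30 in the wild-type apices. Replicates 2 and 3 were above all wild-type apices for 15 of 15 genes, and replicate 1 for 5 of 15, with the other 10 inside the wild-type range. No share over all genes tested is at hand for such counts of a single library, and nothing is read from them. In V3 buds the median of the 15 genes lay at 0.18, 2.40 and 2.47 in Aatoe2_IL replicates 1, 2 and 3. Without Aatoe2_IL apex replicate 1, 15 of 15 genes rose. Without replicate 2 or 3 of Aatoe2_IL or replicate 3 of wild type none rose, without wild-type replicate 2 there was 1, and without wild-type replicate 1 there were 3. In the DESeq2 Wald test 6 rose, as did 1.03% of all genes in that test.

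Morning genes of the circadian clock were also highest in Aatoe2_IL replicates 2 and 3. Of 22 clock and photoperiod genes 9 were tested, all of them from the authors' apex lists. Of these, 1 rose (0.292% of all genes tested did), none fell and 8 did not pass, with a median log2 fold change of 1.94. EPR1 (Aa_G55260h1), a MYB-like gene of the clock family, had 73.5, 124 and 86.2 CPM in Aatoe2_IL apices, against 56.3, 31.3 and 45.8 CPM in wild-type apices (1.08, SE 0.23, edgeR adjusted p = 0.0396). CCA1, a core morning repressor, had 5.82, 81.9 and 33.3 CPM in Aatoe2_IL apices, against 8.19, 1.99 and 3.38 CPM in wild-type apices (3.12, SE 0.82, edgeR adjusted p = 0.0846). Its partner LHY had 38.9, 120 and 54.7 CPM in Aatoe2_IL apices, against 25.5, 15.0 and 32.9 CPM in wild-type apices (1.54, edgeR adjusted p = 0.0714).

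PRR9, which represses CCA1 and LHY later in the morning, had 17.2, 71.0 and 43.8 CPM in Aatoe2_IL apices, against 12.1, 3.98 and 11.2 CPM in wild-type apices (2.26, edgeR adjusted p = 0.0532). RVE8, an activator of evening genes, and the co-activators LNK3 and LNK4 had 2.27, 2.50 and 1.94. Without Aatoe2_IL replicate 2 these were 1.38, 1.63 and 1.22, LHY had 0.93 and CCA1 2.08, and CCA1 had 3.89 without wild-type replicate 1. Over the 9 genes the median lay 0.73, 2.80 and 1.62 above the wild-type mean (log2 CPM) in Aatoe2_IL replicates 1, 2 and 3, with replicate 2 the highest, and between -0.46 and 0.38 in the wild-type apices. Replicates 2 and 3 were above all wild-type apices for 9 of 9 genes, and replicate 1 for 6 of 9. For these counts of a single library, too, no share over all genes tested is at hand. In the Aatoe2_IL buds the median lay at 0.23, 2.11 and 1.24. Without Aatoe2_IL apex replicate 1, 8 of the 9 rose, and without wild-type replicate 1 there was 1. None rose without Aatoe2_IL replicate 2 or 3 or wild-type replicate 2 or 3, and 4 did in the DESeq2 Wald test. The hour at which each library was sampled is not given in the labels, and its part in these values was not tested. The groups overlapped for CCA1 but not for EPR1, LHY and PRR9. Groups without overlap, in either direction, were found for 20.8% of all genes tested.

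**Figure D4:**
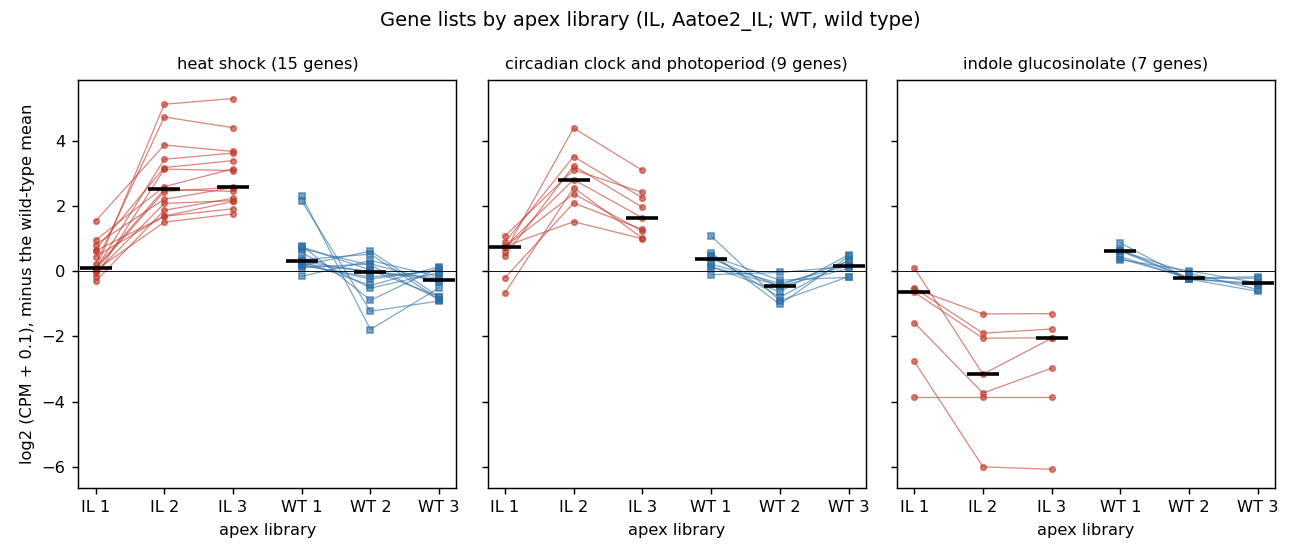
Each line is 1 gene, as log2 of CPM plus 0.1 minus the mean of the 3 wild-type apices, in the 3 Aatoe2_IL libraries (red, IL) left of the 3 wild-type libraries (blue, WT), and black bars are medians over the genes of a panel. The median of Aatoe2_IL replicate 1 lies within the wild-type range for heat shock (0.09) and outside it for the clock (0.73, highest wild type 0.38) and indole glucosinolate genes (-0.65, lowest wild type -0.36), and those of replicates 2 and 3 lie farther out in all 3 panels.

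The flowering lists gave no call in the apex. Of 16 promoters of flowering 4 SPL genes were tested, and none passed. SPL10 (Aa_G61880h1) had the smallest p, with 64.8, 98.4 and 86.7 CPM in Aatoe2_IL apices, against 52.1, 51.3 and 59.3 CPM in wild-type apices (log2 fold change 0.62, SE 0.15, edgeR adjusted p = 0.0594). SPL5 (Aa_G1050h1) had 242, 347 and 302 CPM in Aatoe2_IL apices, against 204, 120 and 175 CPM in wild-type apices (0.83, SE 0.22, edgeR adjusted p = 0.0920). SPL3 and SPL4 had 0.75 and 0.24. In all 4 genes the 3 Aatoe2_IL libraries were above the 3 wild-type libraries, an ordering without overlap that 20.8% of all genes tested showed in either direction. SPL5 and SPL10 passed without Aatoe2_IL replicate 1, at 0.96 and 0.77, and in the DESeq2 Wald test.

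Among repressors of flowering, TOE3 (Aa_G165870h1), another APETALA2-like gene, was the one tested gene of 13 listed, with 10.2, 20.3 and 13.3 CPM in Aatoe2_IL apices, against 12.6, 8.56 and 11.2 CPM in wild-type apices (0.43, edgeR adjusted p = 0.414). The groups overlapped. VIN3, which is induced by long cold and silences a floral repressor in Arabidopsis, had 11, 21.4 and 28.1 CPM in Aatoe2_IL apices, against 12.2, 8.12 and 12.9 CPM in wild-type apices (0.86, edgeR adjusted p = 0.336). Its groups overlapped as well.

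Floral organ and meristem genes gave 1 rise among 5 tested of 16 listed. SHP2 (Aa_G199980h1), a MADS-box gene of carpels and ovules, had 1.04, 1.84 and 1.52 CPM in Aatoe2_IL apices, against 0.156, 0.0864 and 0.507 CPM in wild-type apices (2.49, SE 0.53, edgeR adjusted p = 0.0381). The groups did not overlap, but these are few reads. The fold change was 3.45 without wild-type replicate 3, and the call was lost without Aatoe2_IL replicate 2 or 3 or wild-type replicate 1 or 2. AP1 (Aa_G283230h1), which gives meristems floral identity, had 2.52, 4.38 and 2.19 CPM in Aatoe2_IL apices, against 1.17, 0.519 and 1.35 CPM in wild-type apices (1.56, SE 0.46, edgeR adjusted p = 0.124). AGL6, CRC and UFO had 0.99, 0.51 and 0.34, and AGL6 passed without Aatoe2_IL replicate 1 (1.39, edgeR adjusted p = 0.0481). Outside the list, SRS5 (Aa_G533870h1), a gene of the SHI family that shapes the pistil, rose by 1.04 in log2 units (SE 0.20, edgeR adjusted p = 0.0251), with 29.6, 39.4 and 36.8 CPM in Aatoe2_IL apices, against 22.4, 11.1 and 17.5 CPM in wild-type apices. That call was lost without Aatoe2_IL replicate 2 or 3 or wild-type replicate 2 or 3.

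Branching and boundary lists held 1 rise and 1 fall. HB53 (Aa_G147020h1), a homeobox gene that acts in bud dormancy, had 9.997, 4.38 and 2.29 CPM in Aatoe2_IL apices, against 1.33, 0.864 and 0.761 CPM in wild-type apices (2.49, SE 0.46, edgeR adjusted p = 0.0184). Replicate 1 was the highest here, the fold change was 1.73 without it, and the call was lost without wild-type replicate 2 or 3. The other 4 tested branching genes of 14 listed (DRM2, SEN1, NCED3 and HB40) lay between -0.37 and 0.59 and did not pass. LSH9 (Aa_G345110h1), of the ALOG family of boundary and meristem genes, had 0.0869, 0.102 and 0.190 CPM in Aatoe2_IL apices, against 0.936, 1.73 and 1.18 CPM in wild-type apices (-3.23, SE 0.56, edgeR adjusted p = 0.0136). That is at most a few reads per Aatoe2_IL library, and the call was lost without Aatoe2_IL replicate 2 or 3 or wild-type replicate 2 or 3. KNATM, the other tested gene of that list of 19, had 0.52.

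The cytokinin, gibberellin, abscisic acid, cold, nutrient, flavonoid and cell wall lists gave no call with all libraries. Without Aatoe2_IL replicate 1, RD22 (-1.04, edgeR adjusted p = 0.0139), KIN2 of the cold list (0.65, edgeR adjusted p = 0.0446) and NIA1 (1.12, edgeR adjusted p = 0.0467) passed, and LOG7 did in the DESeq2 Wald test with all libraries (adjusted p = 0.0269). LOG7, a cytokinin-activating enzyme gene, had 9.56, 9.07 and 7.62 CPM in Aatoe2_IL apices, against 4.76, 3.11 and 5.32 CPM in wild-type apices (0.99, SE 0.25, edgeR adjusted p = 0.0773), and CKX1, which degrades cytokinin, had -1.17. For gibberellin, the synthesis gene GA20OX2 had -1.05 (edgeR adjusted p = 0.186) and the breakdown gene GA2OX4 had -0.32. Of 14 abscisic acid and dehydration genes 6 were tested, and RD22 at -0.69 had the smallest p (edgeR adjusted p = 0.150). RAB18, a dehydrin gene, had 18.4, 3.57 and 13.6 CPM in Aatoe2_IL apices, against 30.4, 277 and 13 CPM in wild-type apices, and its log2 fold change was -3.15 with wild-type replicate 2 and -0.85 without it. Among 5 tested of 13 cold genes, DREB1A had -1.24 (edgeR adjusted p = 0.108). The nitrate reductase gene NIA1 had 0.90 (edgeR adjusted p = 0.149), the flavonoid gene TT7 0.88 (edgeR adjusted p = 0.402) and the wall gene XTH15 0.13 (edgeR adjusted p = 0.792). No cell division gene of the list had a name.

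The remaining rises with a name were of mixed function. CIA2, a regulator of chloroplast protein import and ribosome genes, rose by 0.48 in log2 units (SE 0.10, edgeR adjusted p = 0.0363), at 33.7, 31.8 and 34.9 CPM in Aatoe2_IL apices, against 22.9, 24.8 and 24.3 CPM in wild-type apices. AT3G19790 (1.59), AT5G04840 (1.29), AT3G53830 (1.25), AT1G77060 (1.05) and AT4G21970 (0.72) rose, and are given without a role. All of these calls, CIA2 included, were lost without Aatoe2_IL replicate 2 and again without wild-type replicate 2. Those of CIA2, AT5G04840, AT1G77060 and AT4G21970 were also lost without Aatoe2_IL replicate 3. Without wild-type replicate 3 those of CIA2, AT3G19790, AT1G77060 and AT4G21970 were lost, and without wild-type replicate 1 those of CIA2 and AT1G77060. Among regulators that fell, MGP (Aa_G134590h1), a zinc finger partner of root patterning factors, had 0.0869, 0.510 and 0.571 CPM in Aatoe2_IL apices, against 2.89, 3.46 and 2.62 CPM in wild-type apices (-2.94, SE 0.47, edgeR adjusted p = 0.00879). TNY (-1.84), an AP2/ERF gene that restrains growth, and ZFP3 (-1.24), a zinc finger gene of abscisic acid responses, fell too. The MGP call was lost without wild-type replicate 2, and those of TNY and ZFP3 without Aatoe2_IL replicate 2 or 3 or wild-type replicate 2, and that of ZFP3 also without wild-type replicate 3.

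The 3 unnamed rises of largest fold were far above wild type. Aa_G297760h1 had 30.7, 23.8 and 21.9 CPM in Aatoe2_IL apices, against 1.09, 0.691 and 1.18 CPM in wild-type apices, 4.66 on the log2 scale (SE 0.26) and the smallest adjusted p of all genes tested (edgeR, 3.2e-07). Aa_G874400h1 had 10.3, 10.4 and 8.86 CPM in Aatoe2_IL apices, or 314 counts, against a single count in wild-type replicate 1. The ratio was 357 (exact 95% interval 63.7 to 14160, which covers counting error only). Aa_G647150h1 had 6.26, 4.18 and 5.52 CPM in Aatoe2_IL apices, against 0.312, 0.0864 and 0 CPM in wild-type apices (5.16, SE 0.51, edgeR adjusted p = 0.000459), and 6.61 without wild-type replicate 1. In these 3 genes Aatoe2_IL replicate 1 was higher than replicate 3.

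In the other direction, Aa_G107100h3 had no count in Aatoe2_IL apices, against 1.17, 1.21 and 1.1 CPM in wild-type apices, and was at least 12.3-fold lower with the floor of 3 counts over the group. It is 1 of 4 identifiers that share a name stem, so that its reads may be split. Aa_G680390h1 had 2 counts over the Aatoe2_IL apices and 42 over the wild-type apices, a ratio of 18.4 (exact 95% interval 4.80 to 157). Aa_G391150h1 fell by 3.07 on the log2 scale (SE 0.63). It was -4.23 without Aatoe2_IL replicate 1, and all 3 falls were lost without Aatoe2_IL replicate 2 or 3 or wild-type replicate 2, and that of Aa_G680390h1 also without wild-type replicate 1 or 3.

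V3 buds, whose libraries are separate from those of the apex, gave the same sign for most of these genes. Of the 57 genes that rose in the apex, 55 were also higher in Aatoe2_IL buds on average, and of the 158 that fell, 132 were lower. Over all genes tested, 53.1% of those higher in the apex on average were also higher in buds, and 56.0% of those lower were lower. The median log2 fold change in buds was 0.77 for the 57 and -0.45 for the 158, against -0.01 over all genes tested. Of all genes tested, 4.95% passed in buds. For Aa_G297760h1 the Aatoe2_IL buds had 33.3, 28.8 and 29.9 CPM and the wild-type buds 1.01, 2.39 and 1.2 CPM. EXPA9 was low in buds of both genotypes, with 0.860, 0.568 and 0.547 CPM in those of Aatoe2_IL and 0.605, 1.25 and 1.4 CPM in those of wild type. Its bud log2 fold change was -0.72. The difference between its genotype effects (apex minus bud) did not pass (-2.05, SE 0.50, edgeR adjusted p = 0.0712). Deviations from the group means of apex and bud libraries of the same number were correlated in Aatoe2_IL (0.415, 0.320 and 0.239 for numbers 1, 2 and 3, across genes) and, for numbers 1 and 3, in wild type (0.355, 0.062 and 0.248 for numbers 1, 2 and 3), so the tissues are not independent repeats.

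The test of the difference between the genotype effects of the tissues (apex minus bud) passed for 15 of the 215 genes, 2 that rose and 13 that fell in the apex. Over all genes tested 1.03% passed, and since the 215 were chosen by the apex effect, which is part of this difference, nothing is read from their share. SAUR16 (interaction -2.53, SE 0.55, edgeR adjusted p = 0.0442), PMEPCRA (-2.37), ZFP3 (-1.91), MLP28 (-1.84), IDD16 (-1.73) and AACT1 (-1.28) fell in the apex and had bud log2 fold changes between -0.15 and 0.67. For IDD16 the values were 3.48, 2.75 and 2.48 CPM in Aatoe2_IL apices, against 5.93, 7.69 and 5.83 CPM in wild-type apices, and in buds 5.05, 5.78 and 4.15 CPM in Aatoe2_IL, against 3.73, 3.12 and 3.2 CPM in wild type. Over all genes, the number of interaction calls lay between 40 and 391 when single libraries of either tissue were left out, against 202 with all. This test takes apex and bud libraries as unpaired. An alternative that blocks on the replicate number inside each genotype, chosen once values were known, called 1986 genes (10.2%), among them 73 of the 215 and all of the 15.

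**Figure D5:**
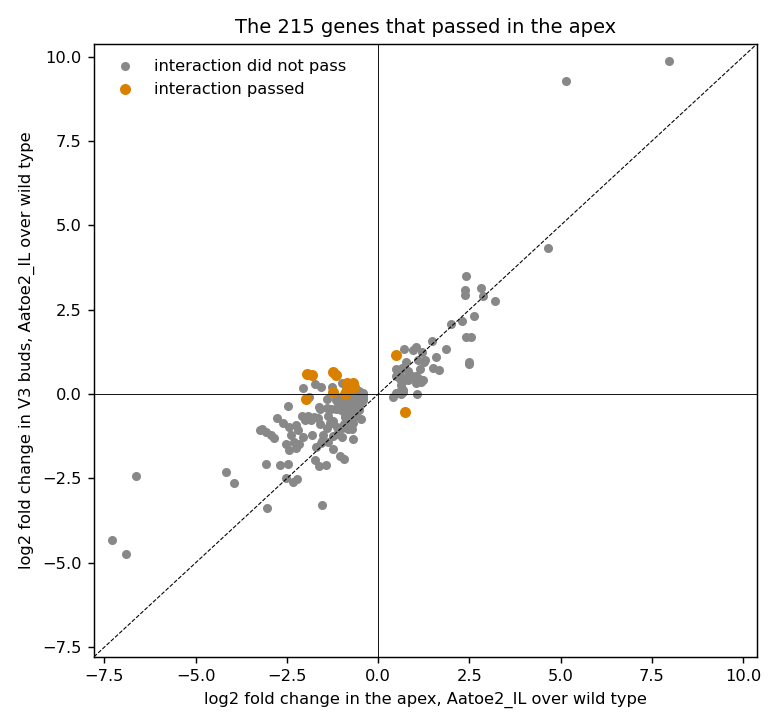
Log2 fold changes of Aatoe2_IL over wild type in the apex (horizontal) and in V3 buds (vertical) for the 215 genes that passed in the apex, with the dashed line marking equal values and orange points the 15 genes whose interaction passed. Most points lie in the same-sign quadrants, and the orange points are mainly falls in the apex with bud values near or above 0.

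Markers of tissue content were checked as far as names allowed. The shoot meristem markers chosen (STM, KNAT1, CLV3, WUS and CUC2) have no name in the files, so the labelled tissue could not be checked against them here. Of 23 tissue markers 4 were tested. The green leaf marker CAB1 had 2215, 2996 and 2833 CPM in Aatoe2_IL apices, against 1456, 2054 and 2210 CPM in wild-type apices (0.49, SE 0.17, edgeR adjusted p = 0.184). The phloem marker SEOR1 had 24.8, 23.2 and 16.1 CPM in Aatoe2_IL apices, against 28.9, 32.7 and 33.1 CPM in wild-type apices (-0.56, edgeR adjusted p = 0.213). In neither did the genotypes overlap, as in 20.8% of all genes tested. The flower marker SHP2 rose and the root marker MGP fell, both given above. The part of tissue content in the other differences was not tested, and in dissected tissue fewer cells of a type and less RNA per cell cannot be told apart.

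The authors' deposited tables list 125 genes higher and 185 lower in Aatoe2_IL apices. Of these, 123 and 175 were tested here, and 33 and 76 passed edgeR's test with all libraries, against 101 and 116 without Aatoe2_IL replicate 1. All of them had the listed direction here, which is no independent support since the reads are the same. Conversely, 106 of the 215 genes are not in those apex lists, which hold only changes of about 2-fold or more. The 215 were called without a fold threshold, and 5 of the 106 changed at least 2-fold. Replicate 1 was the Aatoe2_IL library nearest to wild type for 102 of the 123 and 116 of the 175.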

How the data were processed

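Poly(A) RNA libraries were strand-specific and read as single reads, per the labels' protocols. The deposited table holds whole-number read counts per gene from the authors, not normalized, as the file shows. Its 5 counters of unassigned reads were left out, and reads outside genes made up 13.4% to 21.1% in the apex libraries. STAR, HTSeq 0.5.4p1, DESeq and DESeq2 are named in the submitters' processing notes, without roles. Neither the genome build nor the strand setting of counting is given in the sources used here, and overlapping and antisense genes are therefore uncertain. The authors' deposited tables give group means as normalized signal, a ratio (fold), its log2 and an adjusted p-value, and served for names and listed directions.

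All 12 libraries entered 1 edgeR 4.0.16 fit (R 4.3.3, 4 groups, 8 residual degrees of freedom) after TMM scaling and the default filter on low counts. Contrasts were Aatoe2_IL minus wild type in the apex, in buds, and their difference, each adjusted over 19520 genes. The SE is the absolute log2 fold change over the square root of F. CPM uses TMM-scaled library sizes. The fit was also run on simulated counts drawn independently for each library. These held no library lying between the groups and no link between apex and bud libraries, so they say nothing about those features.

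Members, 29 gene lists and naming rules were chosen with earlier results of these data known. The text names list members that passed, or else the list's smallest p, up to 12 named genes of largest fold each way whose groups do not overlap, 3 unnamed genes each way with at least 10 counts in the higher group, and others described by role. Of 366 list genes 89 had a name. Each library was left out in turn, and scaling, filters, DESeq2 1.42.0, a replicate block and a covariate were tried.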

Additional observations from a re-analysis of the deposited data

Results flagged for a closer look

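For 15 named genes the genotype effect differed between apex and V3 buds by the test of the difference itself (edgeR interaction, apex minus bud, log2, adjusted p under 0.05). The share over all genes tested was 1.03%. Names exist only for genes that the authors had listed as differing between genotypes in either tissue. Nothing is therefore read from the count of 15. Groups of 3 libraries are too small for the test of single outlying samples. Among genes that fell in the apex the differences were -1.84 for MLP28, -1.28 for AACT1, -2.37 for PMEPCRA, -2.53 for SAUR16, -1.73 for IDD16 and -1.91 for ZFP3. CIA2 rose in both tissues, less in the apex (-0.68). The other 8 did not pass in the apex. SPL5 (-1.88), CRC (-1.34), SEOR1 (-2.03), SUS6 (-2.37) and XTH15 (-1.41) had log2 fold changes of 0.83, 0.51, -0.56, -0.27 and 0.13 in the apex and 2.71, 1.85, 1.47, 2.1 and 1.54 in buds. UFO (2.18), KNATM (2.38) and FMOGS-OX6 (1.81) had 0.34, 0.52 and 0.3 in the apex and -1.83, -1.86 and -1.52 in buds.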

How the results depend on the processing

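The 215 apex calls became 129 in a fit of apex libraries alone, 544 by DESeq2, 400 without the filter on low counts, 835 without both Aatoe2_IL replicate 1 libraries, 114 at a fold of at least 2, and between 35 and 698 with single apex libraries left out. Both other scalings, a mean of at least 1 CPM and the share of reads outside genes as covariate gave 200 to 216 calls, but with the covariate 14 of the 73 genes examined singly lost their call, among them SWEET12, ZFP3, TNY, SHP2, EPR1, PES2 and PIN3 (edgeR adjusted p = 0.0596, 0.0650, 0.0585, 0.0764, 0.0527, 0.0739 and 0.0712). Leaving out Aatoe2_IL apex replicate 1 and wild-type apex replicate 2 together, chosen after seeing the data, gave 190 calls. Same-numbered apex libraries of the genotypes did not deviate together (correlations -0.03, -0.28 and 0.09, and 0 of 6 libraries correlated best with their own number), and with the replicate number as a block 45 genes passed. The 967 bud calls became 2134 with the covariate, 589 with the replicate block among buds (also added after seeing the data), and 410 to 1017 with single bud libraries left out. The 202 interaction calls became 569 by DESeq2, 409 with the covariate, 43 without both Aatoe2_IL replicate 1 libraries, 1986 with a replicate block within genotype, and 40 to 391 with single libraries left out. That last block was added after seeing the data; apex and bud libraries of 1 number deviated together except for wild-type number 2, at 0.06. The cause of these changes was not tested. Of the 73 named genes and identifiers that passed in the apex, 72, 18 and 23 kept their call without Aatoe2_IL replicates 1, 2 and 3, and 57, 18 and 46 without wild-type replicates 1, 2 and 3. In the fit of apex libraries alone 70 of the 73 were tested, and 44 kept and 26 lost their call. With the replicate number as a block in that fit, 22 of the 70 kept and 48 lost it. None reversed in any of the 16 alternatives. Genes under 1 CPM rest on few reads.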

Other observations

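Some further genes of the authors' apex lists, chosen after their values were seen and none of which passed edgeR's test with all libraries, had Aatoe2_IL replicate 1 within the wild-type range and replicates 2 and 3 outside it. AT3G09440, a cytosolic HSP70 gene, had 773, 2301 and 2557 CPM in Aatoe2_IL apices, against 755, 993 and 1011 CPM in wild-type apices (log2 fold change 1.03, edgeR adjusted p = 0.186). The co-chaperone gene BAG6 had 67, 206 and 230 CPM in Aatoe2_IL apices, against 85.7, 60.8 and 57 CPM in wild-type apices. ATERDJ3A, of the DnaJ class, had 19, 112 and 117 CPM in Aatoe2_IL apices, against 19.4, 14.2 and 15.8 CPM in wild-type apices. BGLU18, a beta-glucosidase gene, had 1792, 619 and 642 CPM in Aatoe2_IL apices, against 2228, 2249 and 1666 CPM in wild-type apices. Without Aatoe2_IL replicate 1 the log2 fold changes of AT3G09440, BAG6, ATERDJ3A and BGLU18 were 1.40, 1.68, 2.79 and -1.70, and all 4 passed (edgeR adjusted p = 0.0159, 0.00101, 0.00617 and 0.00821).

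A different set was high in wild-type apex replicate 2. The lipid transfer protein gene LTP3 had 0.261, 0 and 0.286 CPM in Aatoe2_IL apices, against 0.780, 4.23 and 0.0845 CPM in wild-type apices. LTI65, a desiccation-induced gene, had 3.83, 0.306 and 0.286 CPM in Aatoe2_IL apices, against 2.11, 24.5 and 0.423 CPM in wild-type apices, and ERF-1, an ethylene response factor gene, had 0.695, 0.102 and 1.33 CPM in Aatoe2_IL apices, against 1.72, 6.91 and 0.507 CPM in wild-type apices. None of these passed with all libraries or without Aatoe2_IL replicate 1.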
